A study of Arabidopsis thaliana with 12 samples.

Results

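CHIL (AT5G05270) encodes the chalcone isomerase-like protein of Arabidopsis thaliana, and it is described here by its signal in flowers of 10 natural accessions. It was taken by its locus, as the measured gene of the core flavonol pathway, with earlier results of these data known. It is 1 of 13286 loci for which a probe set of the array could be named, and 1 probe set reports it. The genes whose pattern was most like that of CHIL were then taken from the other 22745 probe sets, by their correlation with it over the accessions.

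CHIL has the fold of chalcone isomerase but lacks its catalytic activity. It binds chalcone synthase, the first enzyme of flavonoid synthesis, and makes that enzyme favour chalcone over side products. Chalcone isomerase, flavanone 3-hydroxylase and flavonol synthase then lead to flavonols, which protect tissue against ultraviolet light and are abundant in Arabidopsis flowers, where glycosyltransferases and acyltransferases decorate them. Arabidopsis mutants without CHIL hold less flavonol and less proanthocyanidin, the tannin of the seed coat.

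RNA from flowers was hybridized to 12 ATH1 arrays. Col-0 and C24 had 2 arrays each, and Cvi, Da, Laer, RLD, Rsch, Sap, Stw and Ws had 1 each. All plants were natural accessions, with no transgene and no treatment described, raised in long days on agar and then soil, and material was taken from individual plants. The study compared 5 accessions whose flowers make saiginols, which are phenylacylated flavonols (C24, Cvi, Da, Rsch and RLD), with 5 whose flowers do not (Col-0, Laer, called Ler-0 by the study, Ws, Sap and Stw). The duplicates of Col-0 and C24 were described as duplicate hybridizations, so their spread may be technical, and p-values that rest on it then measure the spread between arrays only. The titles of these arrays carry ExpI and ExpII, and the labels do not say what these mark. The 8 other accessions had no replicate. The probes were designed on the Col-0 genome, so a sequence difference under a probe and a difference in transcript level cannot be told apart. In whole flowers, fewer cells that express CHIL and less CHIL RNA per cell also cannot be told apart.

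Labels disagreed for 2 arrays. The array titled Sap carried the ecotype RLD, and the array titled Stw carried the ecotype Sap-0. Titles were used, and the main results are also given without these arrays. FPT2, the acyltransferase of saiginol synthesis, read 28.9 on the array titled Sap and 307.9 on the array of RLD. Array medians ran from 46 to 51.1, and the arrays had been scaled to a common level. The highest of 15 bacterial control probe sets (dap, lys, phe, thr and trp) reached 9.6 on any array. The brighter hybridization controls are not among these 15. CHIL, with no signal under 67.2, was above the 15 controls throughout. Of the markers of floral cell types, 5 of 6 listed for pollen, 2 of 10 for tapetum and 3 of 5 for carpel were measured. Their summed signals ran from 175.8 to 380.4, from 282.1 to 965.6 and from 206.4 to 381.3. Bright members can carry such a sum, since on the Sap array ACT11 read 110.6 and ANX1, also listed for pollen, 0.8. Whether RNA of each type was present on every array was not tested.

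CHIL varied 7.58-fold between the accessions, from Sap to Ws, but the duplicates of 1 accession also lay far apart. On the Col-0 arrays the CHIL signal was 254.6 and 545.1, and on the C24 arrays it was 228.7 and 318.4. Among the other producers, CHIL read 466.5 in Cvi, 263.2 in Da, 169.0 in RLD and 132.4 in Rsch. Among the other non-producers, it read 509.6 in Ws, 414.1 in Stw, 147.4 in Laer and 67.2 in Sap. The lowest and the highest accession were both non-producers, and the 5 producers lay between them.

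**Figure D1:**
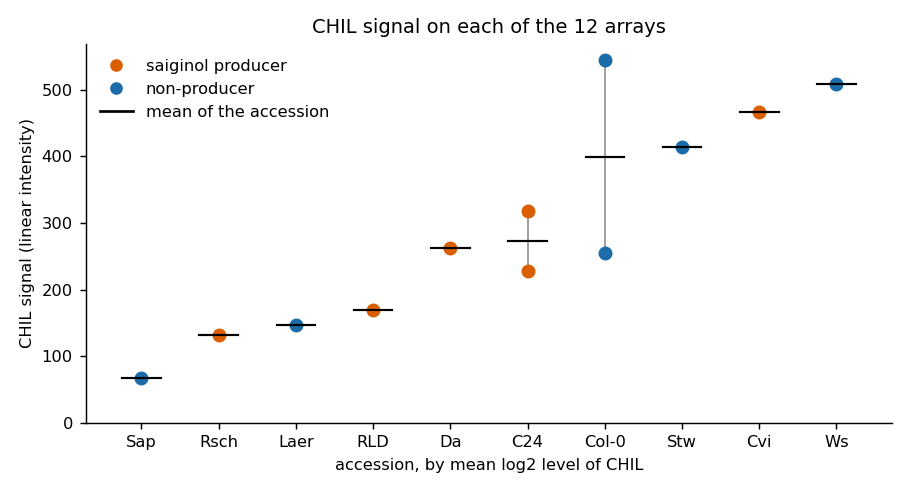
CHIL signal (linear intensity) on each array, with the accessions ordered by their mean log2 level and points coloured by class; black bars are accession means and grey lines join the duplicates of C24 and Col-0. The Col-0 arrays at 254.6 and 545.1 span the values of Da, Stw, Cvi and Ws and the mean of C24, whose dimmer array (228.7) lies below them, as Sap, Rsch, Laer and RLD do.

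From low to high the order was Sap, Rsch, Laer, RLD, Da, C24, Col-0, Stw, Cvi and Ws. The Col-0 duplicates differed 2.14-fold (1.10 on the log2(signal + 1) scale) and the C24 duplicates 1.39-fold (0.48). The widest step between neighbours in the order, 0.97 from Sap to Rsch, was smaller than the gap between the Col-0 arrays. None of the 9 neighbouring pairs differed by more than the Col-0 duplicates, and 2 differed by more than the C24 duplicates, Sap and Rsch and, by 0.64, RLD and Da. Of all 45 pairs of accessions, 20 lay further apart than the Col-0 duplicates, and 8 of these included Sap. Without Sap, the highest accession stood 3.85-fold above the lowest.

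The Col-0 duplicate gap of CHIL was wide for a gene of its brightness. Among 3544 probe sets with a mean signal of at least 100, the median gap between the Col-0 arrays was 0.23 on the log2 scale, and 30 probe sets (0.847%) had a gap as wide as that of CHIL. For C24, 34.0% of these probe sets had a gap at least as wide as that of CHIL. The spread across accessions was wide too. On the log2(signal + 16) scale, the SD of CHIL over the 10 accession means was 0.87, against a median of 0.22 for the bright probe sets, and 57 of them (1.61%) had an SD at least as large.

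**Figure D2:**
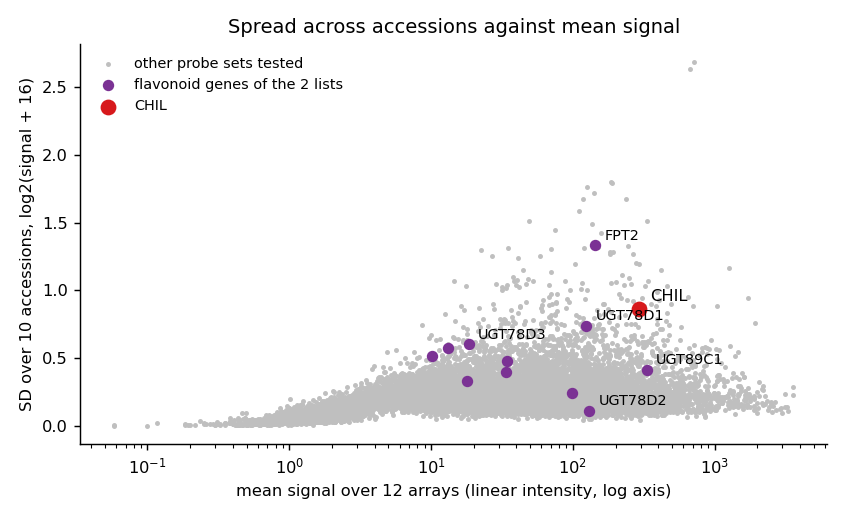
SD over the 10 accession means, on the log2(signal + 16) scale, against mean signal over 12 arrays (log axis) for the 13436 probe sets tested. CHIL (red) has an SD of 0.87, between UGT78D1 (0.74) and FPT2 (1.33) among the flavonoid genes marked in purple.

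When all accessions were compared in 1 limma fit of the 12 arrays, the range of CHIL of 2.90 on the log2 scale did not pass the test (F = 4.27, Benjamini-Hochberg adjusted p = 0.577, limma). None of the 13436 probe sets passed (0%), and 1292 (9.62%) had an unadjusted p under 0.05, which CHIL did not. The fit had 2 residual degrees of freedom, from the duplicates of Col-0 and C24, and the single arrays were assumed to vary like them. Without Sap and Stw the range of CHIL was 1.94 (adjusted p = 0.753, limma). With the ecotype labels in place of the titles, it was 2.25 (adjusted p = 0.767, limma).

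Against Col-0, CHIL was lower in 6 accessions and higher in 3, and none of these differences passed the adjusted threshold in limma. The log2 difference from Col-0 was -2.45 in Sap (SE 0.57, adjusted p = 0.423, limma), and Sap was the 1 accession with an unadjusted p under 0.05. Of all probe sets, 7.28% had an unadjusted p under 0.05 in the comparison of Sap with Col-0. In the others this share was 8.97% for Cvi, 6.36% for Da, 7.06% for Laer, 7.17% for RLD, 6.37% for Rsch, 7.02% for Stw and 4.91% for Ws. The differences from Col-0 were -1.49 in Rsch, -1.33 in Laer and -1.14 in RLD, and they were -0.50 in Da and -0.46 in C24. In Stw, Cvi and Ws they were 0.15, 0.32 and 0.45. With the ecotype labels in place of the titles, the difference was 0.15 for Sap and -1.79 for RLD (adjusted p = 0.647, limma), and neither passed. All 9 were taken against the same Col-0 arrays, and leaving out the brighter array moved each up by 0.55.

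Saiginol producers and non-producers did not differ in CHIL beyond the spread of the accessions. The mean signal was 261 ± 130 in the producers (SD, n = 5) and 308 ± 190 in the non-producers (SD, n = 5). The classes overlapped over most of their range, since producers ran from 132.4 to 466.5 and non-producers from 67.2 to 509.6. The log2 difference, producers minus non-producers, was -0.02 (SE 0.56, adjusted p = 0.996, limma), and an exact permutation test over the 252 splits gave a two-sided p of 1. No probe set of 13436 passed the adjusted threshold in this comparison (0%), while 849 (6.32%) had an unadjusted p under 0.05 and in 164 (1.22%) the classes did not overlap. The sign of the CHIL difference turned under several alternatives, from -0.47 without Sap to 0.26 without Ws, and was -0.36 without Sap and Stw. With the ecotype labels, which place the array titled Sap among the producers, it was -0.60 (adjusted p = 0.940, limma). No alternative brought the adjusted p under 0.924.

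C24 and Col-0 are the producing and the non-producing parent of the lines in which the saiginol locus was mapped. The CHIL signal was 274 ± 63.4 in C24 (SD, n = 2) and 400 ± 205 in Col-0 (SD, n = 2). The arrays overlapped, since the brighter C24 array, at 318.4, lay above the dimmer Col-0 array, at 254.6. The log2 difference, C24 minus Col-0, was -0.46 (SE 0.47, adjusted p = 0.889, limma). No probe set passed the adjusted threshold (0%), 1061 (7.9%) had an unadjusted p under 0.05, and the arrays of 35.9% of probe sets did not overlap. The direction rested on 1 Col-0 array, since the difference was 0.084 without the brighter one and -1.01 without the dimmer one.

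The other flavonoid genes did not share 1 pattern with CHIL. Of 6 genes listed for the core flavonol pathway only CHIL was measured under its name, and of the 6 genes listed for the chalcone isomerase fold again only CHIL was. The 19 listed regulators and 11 genes of general phenylpropanoid metabolism were not analysed here. Of genes that decorate flavonols 5 of 9 were measured, and of the anthocyanin and tannin branch 6 of 15. Correlations given from here on are over the 10 accession means of log2(signal + 16). They describe accessions whose values share an array each, so a difference in the handling of 1 array enters both genes, and no p is given for them.

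UGT89C1, the flavonol 7-O-rhamnosyltransferase, had the highest correlation with CHIL among these 11 genes, at r = 0.30. Its signal was 396.3 and 519.8 on the Col-0 arrays, 236.2 and 236.6 on the C24 arrays, and from 202.6 in Laer to 447.8 in Cvi on the others. UGT89C1, like CHIL, read higher on the second Col-0 array and was high in Cvi and Ws. It was above 300 in Rsch and Sap, where CHIL was lowest. The correlation stayed positive, from 0.18 to 0.53, under all 19 alternatives.

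UGT78D1, the flavonol 3-O-rhamnosyltransferase, gave r = 0.11 with CHIL. Its signals were 161.9 and 216.4 in Col-0 and 36.9 and 8.8 in C24, and from 75.7 in Da to 214.5 in Ws in the other accessions. C24 was low for UGT78D1 and in the middle of the order for CHIL. UGT78D2, the flavonoid 3-O-glucosyltransferase, varied little, from 113.0 to 158.6 over the 12 arrays, and gave r = -0.03, which changed sign in 10 of 19 alternatives. UGT78D3, the flavonol 3-O-arabinosyltransferase, ran from 1.0 in Cvi to 41.2 in Rsch and gave r = 0.04, with the other sign in 8 of 19 alternatives. In Cvi, Laer (3.9), Sap (5.8) and Stw (8.0) it read below 9.6, the highest signal of the bacterial controls. Its r and its tests therefore rest in part on signals at that level.

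FPT2 gave r = -0.17 with CHIL, and from -0.58 without Sap to -0.01 over the alternatives. It read from 197.5 to 307.9 on the arrays of producers and from 17.6 to 89.8 on those of non-producers, so its classes did not overlap, while those of CHIL did. Ws and Stw, which were low in FPT2, and Cvi, which was high, all had a CHIL signal above 400. The difference of FPT2 between the classes was 2.87 on the log2 scale (SE 0.36, adjusted p = 0.0764, limma), against -0.02 for CHIL. The study had picked FPT2 from a mapped interval for such a difference on these arrays, so this separation is not independent evidence.

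Of the 6 measured genes of the anthocyanin and tannin branch, 5 correlated negatively with CHIL and 1 positively. Of all 22745 probe sets, 46.2% correlated positively. The median r was -0.41 for the 6 genes, beside a median of -0.04 over all probe sets. UGT79B1, which adds xylose to the anthocyanin glucoside, gave r = -0.53, and DFR, dihydroflavonol reductase, gave r = -0.47. DFR read 14.4 and 21.7 in Col-0 and 17.7 and 19.7 in C24, and ran from 25 in Cvi to 82.5 in Laer in the others. DFR was above 40 in Laer, Stw, Rsch and Sap, of which 3 were low in CHIL and Stw was high. UGT75C1, the anthocyanin 5-O-glucosyltransferase, ran from 1.0 to 50.0 with r = -0.42, and UGT80B1, a sterol glucosyltransferase of the transparent testa mutants, from 72.9 to 156.3 with r = -0.39. ANR, anthocyanidin reductase, gave r = -0.16 over signals of 1.3 to 29.1. 5MAT, an anthocyanin malonyltransferase, gave r = 0.01 over signals of 2.8 to 35.6. On some arrays UGT75C1, ANR and 5MAT read below 9.6, the highest signal of the bacterial controls. Their r values therefore rest in part on signals at that level. Without Sap and Rsch, the accessions farthest from the CHIL median, the r of UGT80B1 was -0.01 and that of UGT79B1 -0.25, while DFR gave -0.46 and UGT75C1 -0.47. Without Sap and Stw, whose labels conflict, the r was -0.69 for ANR, -0.70 for UGT75C1, -0.67 for DFR, -0.47 for UGT79B1, -0.42 for 5MAT and -0.26 for UGT80B1. Among the decoration genes it was then 0.53 for UGT89C1, 0.16 for UGT78D1, -0.14 for UGT78D3, -0.36 for UGT78D2 and -0.51 for FPT2.

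**Figure D3:**
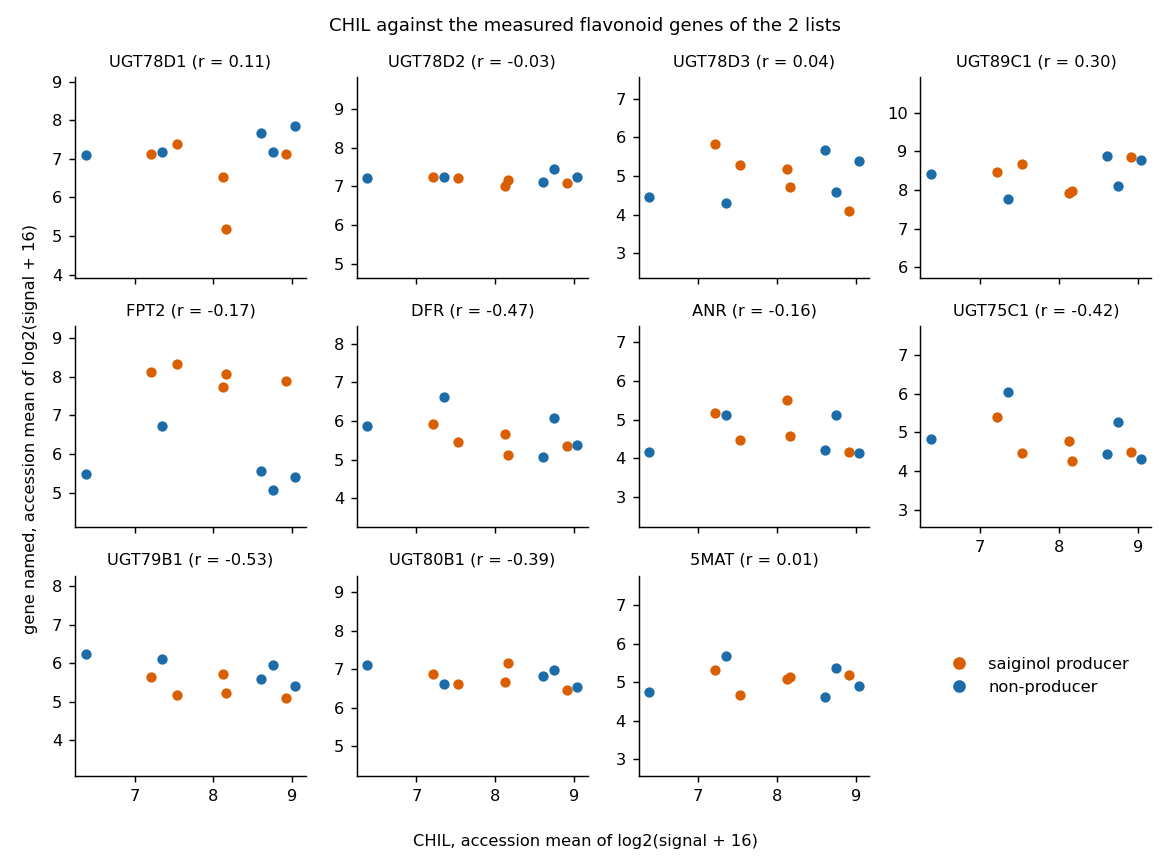
Accession means of log2(signal + 16) of 11 flavonoid genes (vertical axis, the same span in each panel) against CHIL (horizontal axis), with Pearson r over 10 accessions. FPT2 separates producers from non-producers along its own axis and not along that of CHIL, and the most negative correlations with CHIL are those of UGT79B1, DFR and UGT75C1.

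None of these 11 genes passed the adjusted threshold in limma in any of the 3 comparisons as run here. The study had picked FPT2 in part by its difference between the classes on these same arrays, so its p-values are not independent evidence. FPT2 passed between producers and non-producers under 6 alternatives, with adjusted p from 0.000517 without Laer to 0.0297 with a filter on the dimmest 25% of probe sets (limma). It also passed between C24 and Col-0 with that filter (adjusted p = 0.0428, limma) and with a variance trend (adjusted p = 0.0164, limma), and no other of the 11 passed in these 2 comparisons under any alternative. At an unadjusted p under 0.05 there were 1 of 5 decoration genes and 1 of 6 branch genes between producers and non-producers, 4 of 5 and 0 of 6 between C24 and Col-0, and 2 of 5 and 1 of 6 across accessions. Over all probe sets these shares were 6.32%, 7.9% and 9.62%. The median log2 difference between C24 and Col-0 was -0.94 for the decoration genes, 0.24 for the branch genes and 0.00 over all probe sets. HYH, a light-signalling transcription factor related to HY5, was the 1 measured gene of 11 listed for light and ultraviolet signalling, and gave r = -0.15 with CHIL over signals of 1.1 to 20.8.

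Of 22745 probe sets, 147 (0.646%) had a correlation with CHIL of at least 0.8 in size, 53 positive and 94 negative, and 2 exceeded 0.9 and 7 lay under -0.9. The highest, r = 0.91, was a probe set without a named gene, with signals from 33.2 to 248.9. The 10 named genes most alike were found among the first 21 probe sets, of which 11 had no single named gene. They were AT1G17090 (r = 0.90), AT2G14160 (0.89), HTB1 (0.87), AT2G19150 (0.87), AT1G20770 (0.86), AT1G01080 (0.86), AT3G30710 (0.85), AT5G39430 (0.85), AT5G49100 (0.85) and AT5G59305 (0.84). None of them is in a flavonoid list. For the core pathway this was fixed in advance, since of its 6 listed genes only CHIL was measured under its name. Probe sets without a named gene were ranked too. A listed gene that only such a probe set reports could therefore be among the most alike without being recognized.

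HTB1, a histone H2B, was the brightest of the genes most like CHIL. It read 246.7 in Sap, 341.9 in Laer, 385.9 in Da, 406.8 in Rsch, 496.4 in RLD, 498.2 in Stw, 518.4 in Cvi and 676.9 in Ws, with 570.7 and 447.7 in Col-0 and 678.1 and 328.2 in C24. Sap was lowest and Ws highest among the single arrays, as for CHIL, but on the duplicates HTB1 and CHIL went opposite ways. AT1G17090 ran from 22.2 in Laer to 39.5 on a C24 array, a narrow range beside that of CHIL. AT3G30710, a pseudogene, and AT2G14160, AT5G39430 and AT5G59305 had mean signals of 2.2 to 8.0, no higher than the brightest of the 15 bacterial controls.

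AT4G14240 had the strongest correlation of any probe set, at r = -0.96. It read 106.2 in Sap, 89.3 in Laer, 84.3 in RLD, 84.1 in Rsch, 73.5 in Da, 63.1 in Stw, 63.0 in Ws and 61.9 in Cvi, with 43.9 and 82.9 in Col-0 and 57.2 and 72.9 in C24. The 4 accessions lowest in CHIL were the 4 highest for AT4G14240, yet both genes read higher on the second Col-0 array. GSTU22, a tau-class glutathione S-transferase, gave r = -0.94 with signals from 5.7 in Ws to 24 in Sap. AT4G37295 gave -0.92 (0.9 to 20.2), AT4G31080 gave -0.90 (91.1 to 159.1) and ATC, the Arabidopsis homologue of CENTRORADIALIS, gave -0.90 with no signal above 1.5. With median centring the r of ATC was -0.05, and ATC and AT4G37295 had mean signals under the brightest of the 15 bacterial controls.

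**Figure D4:**
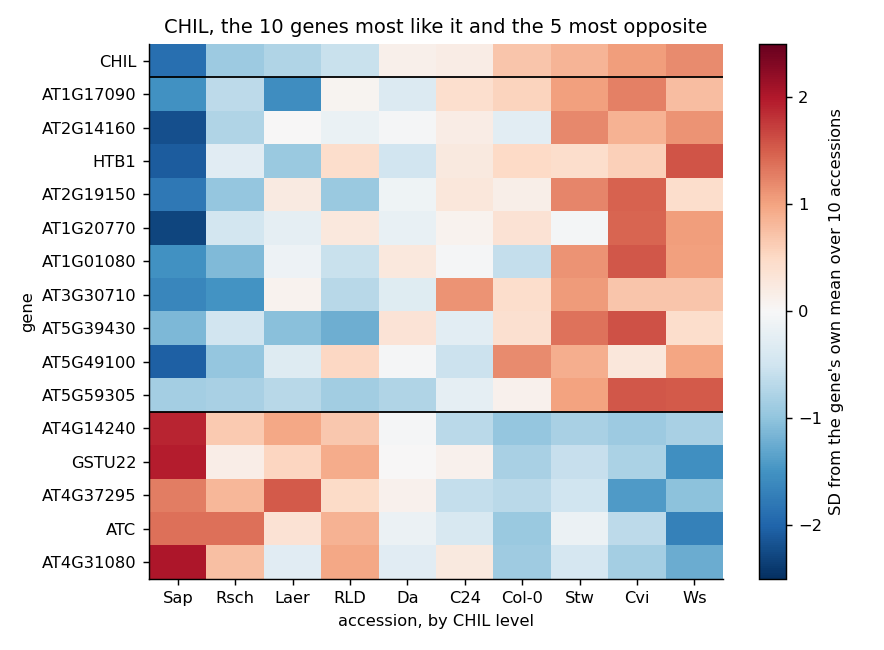
Accession means of log2(signal + 16), each gene as SD from its own mean, with accessions ordered by CHIL level; CHIL is at the top, then the 10 named genes most alike and the 5 most opposite. Sap is at the low end of nearly all genes most alike and at the high end of the genes most opposite, and on this scale, which shrinks the differences of dim genes, their SDs of 0.02 to 0.38 are below that of CHIL (0.87).

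The duplicate arrays give a view that accession means do not carry. CHIL was higher on the second array of both Col-0 and C24. Of the 10 genes most like CHIL, 1 was higher on the second Col-0 array (AT5G49100) and 1 on the second C24 array (AT2G19150), beside 46.1% and 48.2% of all probe sets tested. Of the 5 most opposite, 3 and 4 were higher there. The likeness seen between accessions was not seen between arrays of 1 accession.

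The ranking also rested on few accessions. Without Sap and Rsch, the size of r for the 15 genes lay between 0.59 and 0.94. Without Sap and Stw, 0 of the 15 stayed among the 10 most alike and 5 most opposite, without Sap alone 2 stayed, and with only the second array of Col-0 and C24 in the means 0 stayed. Without Sap and Stw, the r of the 10 genes most alike lay between 0.68 for AT5G49100 and 0.89 for AT5G59305, and that of the 5 most opposite between -0.93 and -0.83. AT4G37295, with a mean signal of 8.4, kept an r of -0.87 or lower in the 18 alternatives that held it, and the filter on low signals removed it. None of the 15 genes passed the adjusted threshold across accessions in limma, and 1 (AT4G37295) had an unadjusted p under 0.05, beside 9.62% of all probe sets. The 15 were picked by r over accession means of these same arrays, so this count is not independent of their choice.

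Hybridization controls, which the accessions do not set, ran opposite to CHIL in part. The mean log2 signal of the bacterial and phage hybridization controls, which are spiked into each hybridization, was highest on the first Col-0 array (9.09) and in Sap (9.02) and lowest on the second Col-0 array (8.48) and in Ws (8.60), which had the highest CHIL signals. Stw did not follow this, with 8.97 for these controls and a high CHIL signal of 414.1. Over the accessions the correlation of these controls with CHIL was -0.57. Of all tested probe sets, 8.6% were correlated with them at least as strongly. Without Sap and Rsch the correlation with CHIL was -0.32. The log2 ratio of the 3′ to the 5′ GAPDH probe set, a sign of RNA integrity, ran from -0.36 in RLD to 0.79 in Laer, with r = -0.08. The correlation with CHIL was 0.38 for the summed signal of pollen markers, 0.46 for tapetum, -0.37 for carpel and -0.33 for RCA, the Rubisco activase of green tissue, and it lay between -0.32 and -0.12 for all 4 without Sap and Rsch. Single markers then went opposite ways. For tapetum, A9 gave -0.37 and AMS 0.49. For pollen, ACT12 gave 0.38 and the others from -0.39 to -0.22. For carpel, NGA3 gave 0.33, SPT -0.08 and ALC -0.17. The part of these controls and cell types in the CHIL differences was not tested.

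CHIL lies on chromosome 5 and RefSeq lists 2 transcripts for it, which 1 probe set does not separate. Of the 8 genes on either side in RefSeq's order, 9 were measured by name. CYP79A2, a cytochrome P450 that acts on phenylalanine, and AT5G05250 lie close by and read at most 3.3 and 5.0, with r = 0.07 and -0.08. AT5G05310 gave the strongest correlation among these neighbours, r = -0.72, over signals of 61.4 to 94.5. No measured neighbour rose with CHIL across the accessions beyond r = 0.13, given by AT5G05210.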

How the data were processed

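The deposited values are linear intensities, 1 per probe set and array, which the authors had scaled: without the highest and lowest 2%, each array has a mean of 100.01. The summarization software is not given in the sources used here. Of 22810 probe sets, 64 were controls, 13513 list 1 gene, and the 13436 with 1 RefSeq locus (TAIR10.1) were tested. The number of arrays limits the precision.

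Signals were compared as log2(signal + 1) in R 4.3.3 by limma 3.58.1, at an adjusted p (Benjamini-Hochberg) under 0.05, so fold changes of dim genes are understated. Producers and non-producers, as the study's methods class the accessions, were compared on accession means, the others on arrays. Likeness is Pearson r over accession means of log2(signal + 16). The genes named are CHIL, the 10 highest and 5 lowest in r with 1 RefSeq locus, and the measured members of the lists, a gene with several probe sets being represented by the brightest. CHIL and the lists were chosen with earlier results of these data known. The fits were also run on simulated data with planted changes, to check the code. Every probe set was given the same noise there, unlike the real signals, so this does not measure what the fits could detect here. Alternatives covered scaling, pseudocount, filter, variance prior, accession as a random block, replicate block, Spearman correlation and omission of accessions or arrays. Use of the ecotype labels, and omission of Sap and Stw across accessions, were added after the data had been seen. Exact tests used scipy 1.17.1, and figures matplotlib 3.10.9.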

Additional observations from a re-analysis of the deposited data

How the results depend on the processing

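CHIL passed no adjusted threshold under any alternative run. Between producers and non-producers its log2 difference of -0.02 became 0.0028 with quantile normalization, 0.052 with median centring and 0.046 with the first arrays of Col-0 and C24 alone, and ran from -0.47 to 0.26 when each accession was left out. Between C24 and Col-0 it ran from -1.01 to 0.084 when each array was left out. The replicate block, with the Exp number in the titles of these arrays as a term, left it at -0.46 (adjusted p = 0.802, limma). The labels do not say that these numbers mark a pairing, and the deviations of same-numbered arrays correlated at 0.05. Against Col-0, leaving out 1 array of Col-0 or C24 gave from -1.01 to 0.084 for C24, -1.05 to 0.048 for Da, -0.22 to 0.87 for Cvi, -0.40 to 0.70 for Stw and -0.10 to 1.00 for Ws. With the ecotype labels, Sap minus Col-0 was 0.15, since the array titled Stw then stands for Sap.

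The count of probe sets past the adjusted threshold, 0 in each comparison in limma, was 2 between producers and non-producers with pseudocounts of 16 or 64, the filter on the lowest 25% of mean signals, a variance trend with a robust prior, or accession as a random block, and from 0 to 2 without each accession. It was 23 with the filter and 32 with the trend between C24 and Col-0, and 30 and 12 across accessions. The 147 probe sets with a correlation of at least 0.8 in size became 414 without Sap and Stw and from 202 to 313 without each accession, where fewer accessions enter each r. The cause of the other shifts was not tested. The 8 single arrays set the limit of what can be told, since their own spread is not measured.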
